A study of Mus musculus with 15 samples.

Results

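The nuclear genes that encode proteins of the mitochondrial ribosome were followed across microdissected kidney tubules of the mouse. Members were the genes whose Ensembl identifier carries a protein-coding symbol beginning with Mrps or Mrpl and a digit, which gave 78 of the 54752 genes in the deposited table, 29 named Mrps and 49 named Mrpl. The prefix is a guide to the subunit with 3 exceptions. Mrps18a and Mrps30 belong to the large subunit, and Mrps36 is now known as a subunit of the 2-oxoglutarate dehydrogenase complex rather than a ribosomal protein. The list therefore held 26 small-subunit and 51 large-subunit genes, of which 46 have a bacterial homolog and 31 are specific to mitochondria.

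Mitochondrial ribosomes translate the few mRNAs of the mitochondrial genome, all of which encode core subunits of the respiratory chain and the ATP synthase. Their ribosomal RNAs come from mitochondrial DNA, whereas every protein is encoded in the nucleus, made in the cytosol and imported. The small subunit decodes the mRNA, and the large subunit forms the peptide bond and passes the chain through an exit tunnel to the inner membrane. Proximal and distal convoluted tubules are both rich in mitochondria, which power their salt transport.

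The study concerns claudin-10a, a tight-junction protein that forms a paracellular anion pore in the proximal tubule. Total RNA was sequenced from proximal convoluted tubules (PCT) of mice labelled Cldn10a KO (3 libraries) and of WT mice (4 libraries), and from distal convoluted tubules (DCT) of Cldn10a KO mice (4 libraries) and of WT mice (4 libraries). Each library came from tubules sorted by hand after enzymatic digestion of the kidney, pooled as 10 PCT segments or about 20 DCT segments. Whether each numbered library is a different mouse is not stated, and the spread behind every p-value below may therefore be technical. Age, strain and the way the deletion was made are likewise not given in these sources.

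Libraries held 28729339 to 51764746 counts, of which the members took 10883 to 20322. The 2 mitochondrial ribosomal RNAs alone accounted for 57.8% to 71.6% of counts. Cldn10 had 0 counts in each PCT KO library and 541 to 1514 counts in PCT WT libraries, against 0 to 24 counts in DCT KO and 3 to 22 counts in DCT WT libraries. Over 8 proximal tubule markers the summed level was 3820 to 4150 CPM (counts scaled to a common library size) in PCT KO and 3510 to 4370 CPM in PCT WT, against 7.19 to 14.6 CPM in DCT KO and 10.8 to 14.0 CPM in DCT WT. The 6 DCT markers summed to 0.551 to 0.919 CPM in PCT KO and 1.14 to 2.93 CPM in PCT WT, against 1900 to 2370 CPM in DCT KO and 1970 to 2590 CPM in DCT WT. DCT libraries also held RNA of 3 neighbouring cell types. The 4 markers of the thick ascending limb summed to 259 to 404 CPM in DCT KO and 161 to 339 CPM in DCT WT, the 4 of connecting tubule and principal cells to 37.3 to 72.6 CPM in DCT KO and 52.4 to 73.9 CPM in DCT WT, and the 4 of intercalated cells to 69.8 to 140 CPM in DCT KO and 121 to 169 CPM in DCT WT. PCT libraries of either genotype reached at most 1.37 CPM for the limb, 6.39 CPM for connecting tubule and principal cells and 0.5 CPM for intercalated cells, with Cldn16, Aqp2 and Avpr2 at 0. The 5 endothelial markers summed to 15.7 to 30.8 CPM in PCT KO and 9.77 to 19.0 CPM in PCT WT, against 36.1 to 37.1 CPM in DCT KO and 39 to 53.1 CPM in DCT WT. In DCT, the median log2 difference KO minus WT was 0.69 over the limb markers (4 of 4 above 0). Over 3 tested connecting tubule and principal cell markers it was -0.99 (3 below 0). It was -0.36 over intercalated cell markers (4 of 4 below 0) and -0.31 over endothelial markers (5 of 5 below 0). In PCT, the endothelial markers had 0.72 (5 of 5 above 0). None of these had an adjusted p under 0.05 by limma. The part of these cells in the segment and KO minus WT differences below was not tested. In bulk tubules, fewer cells of a type and less RNA per cell cannot be told apart.

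Of the 78 members, 76 had enough counts to be tested. Mrpl53, on chromosome 6 at 83109040 to 83109939 of GRCm38, had 0 counts in all 15 libraries, and 88% of its exon bases are shared with the gene Gm42688 on the same strand, which also had 0. Mrps34, on chromosome 17 at 24895116 to 24897502, had 0 to 11 counts per library, and 63.4% of its exon bases are shared with Mapk8ip3 on the opposite strand. In all, 33 members share exon bases with another gene and 23 with a protein-coding one, so that their counts depend on how shared reads were assigned.

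Summed over all members, the CPM of the 4 groups overlapped. The sum was 382 ± 56.4 CPM in PCT KO (SD, n = 3) and 378 ± 16.6 CPM in PCT WT (n = 4), against 347 ± 42.3 CPM in DCT KO (n = 4) and 376 ± 18.4 CPM in DCT WT (n = 4). The 3 PCT KO libraries stood at 388.5, 322.6 and 434.8 CPM, and the 4 DCT KO libraries at 332.2, 384.9, 293.8 and 376.8 CPM. The KO groups thus spread more widely than the WT groups, and the DCT WT values lay within the range of PCT KO. As a share of the counts of nuclear protein-coding genes alone, members were at 0.278 ± 0.0335% in PCT KO and 0.288 ± 0.0141% in PCT WT, against 0.329 ± 0.0357% in DCT KO and 0.348 ± 0.0102% in DCT WT. On that scale the WT segments did not overlap, with 0.272% to 0.306% in PCT and 0.333% to 0.356% in DCT. The order of the segments in a sum thus depends on what the sum is divided by, and each gene below is given in CPM after 1 scaling of all 15 libraries.

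**Figure D1:**
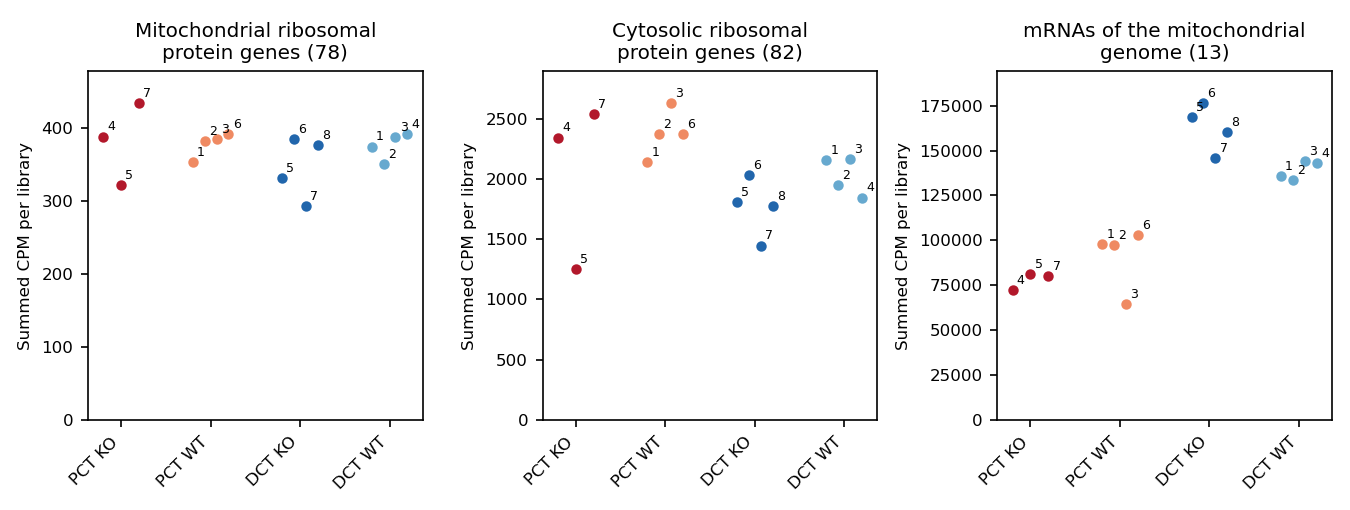
Summed CPM of the members, of 82 cytosolic ribosomal protein genes and of the 13 mitochondrial mRNAs in each library (points, numbered by replicate) for PCT KO, PCT WT, DCT KO and DCT WT. Member sums lie between 293.8 and 434.8 CPM with the groups overlapping, whereas mitochondrial mRNA sums are 72160 to 81340 CPM in PCT KO and 64610 to 103100 CPM in PCT WT, below the 145700 to 176500 CPM of DCT KO and the 133500 to 144300 CPM of DCT WT.

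A pair of KO libraries were the lowest of their group for most members. PCT KO replicate 5 had the lowest level of its group for 56 of the 76 members, with a median difference of -0.38 on the log2 scale from the other PCT KO libraries, and the same library was lower by a median of -1.01 over the cytosolic ribosomal proteins. Its mitochondrial ribosomal RNA took 68.0% of counts, against 61.6% and 57.8% in the other PCT KO libraries. DCT KO replicate 7 was lowest of 4 for 44 of the 76 members, with a median difference of -0.30 and 71.5% of counts in mitochondrial ribosomal RNA. In the other direction, PCT KO replicate 7 was highest of its group for 43 of the 76 members. Its median difference from the other PCT KO libraries was 0.28. That library and PCT WT replicate 6 carry library numbers of another series than the rest, with no DCT library in it. Member results that rest on these KO libraries are given below with and without them.

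Although their products are assembled into one particle, the members' mRNAs differed widely in level. Dividing CPM by exon length in kilobases, the 76 tested members ran from 0.237 to 17.4 CPM per kb, a ratio of 73.4, with a median of 1.84 and quartiles of 0.816 and 2.94. The highest was Mrpl34, a homolog of bacterial L34, at 17.4 ± 3.90 CPM per kb (SD over all 15 libraries), followed by Mrps21, a homolog of bacterial S21, at 16 ± 3.25. Next came Mrps36 at 7.26 ± 1.31, Mrpl30, a homolog of bacterial L30, at 6.39 ± 1.1, and Mrpl50, a protein specific to mitochondria, at 5.88 ± 2.70 CPM per kb. Processed pseudogenes of Mrps36 were also counted, at 64 to 166 per library for Mrps36-ps1 and 33 to 111 for Mrps36-ps2. Mrps36 itself had 227 to 574 counts, and the split of reads between the copies is uncertain. Mrpl34 and Mrps21 did not differ from each other beyond their spread. Mrpl50 held its place through PCT, since these SDs pool both segments. It had 8.23 ± 0.74 CPM per kb in PCT WT and 3.24 ± 0.275 in DCT WT, whereas Mrpl30 had 5.43 ± 0.353 in PCT WT and 7.39 ± 0.651 in DCT WT. Their order thus reversed between the segments by more than the spread, and in DCT WT Mrpl50 also lay below Mrps6 at 7.13 ± 0.633 and Mrpl42 at 6.02 ± 1.44 CPM per kb. The lowest by exon length were Mrps18b at 0.237 ± 0.114, Mrpl33 at 0.261 ± 0.0626, Mrps30 at 0.281 ± 0.0628, Mrps9 at 0.369 ± 0.134 and Mrpl48 at 0.385 ± 0.0800 CPM per kb. Neighbours among these 5 overlapped in their spread, and their order depends on the length used, as given below.

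Subunit and evolutionary origin did not set the level apart by much. The median over the 25 tested small-subunit genes was 1.24 CPM per kb and over the 50 large-subunit genes 1.90, and it was 1.86 over the 46 genes with a bacterial homolog and 1.76 over the 29 specific to mitochondria. The order of the members was nearly the same in both genotypes, with a Spearman rho of 0.986 between PCT KO and PCT WT and of 0.977 between DCT KO and DCT WT, and it differed more between segments, with a rho of 0.854 in KO and 0.860 in WT. These correlations are across genes, which are not independent replicates, and are a description. The length used matters to the order: with the length of the principal transcript, an alternative chosen after seeing the data, the ratio of highest to lowest was 58.6 and Mrpl42 was highest, and with CPM alone the ratio was 41.6 and Mrpl30 was highest. The annotated exons of Mrpl33 span 7326 bases and its principal transcript 478. By the latter length Mrpl33 had 4.01 CPM per kb, rank 24 of the 76, and Mrps9 had rank 57. Of the 5 lowest by exon length, 2 stayed among the lowest 5 by principal transcript, Mrps18b and Mrps30. Of the 5 highest, 4 stayed.

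**Figure D2:**
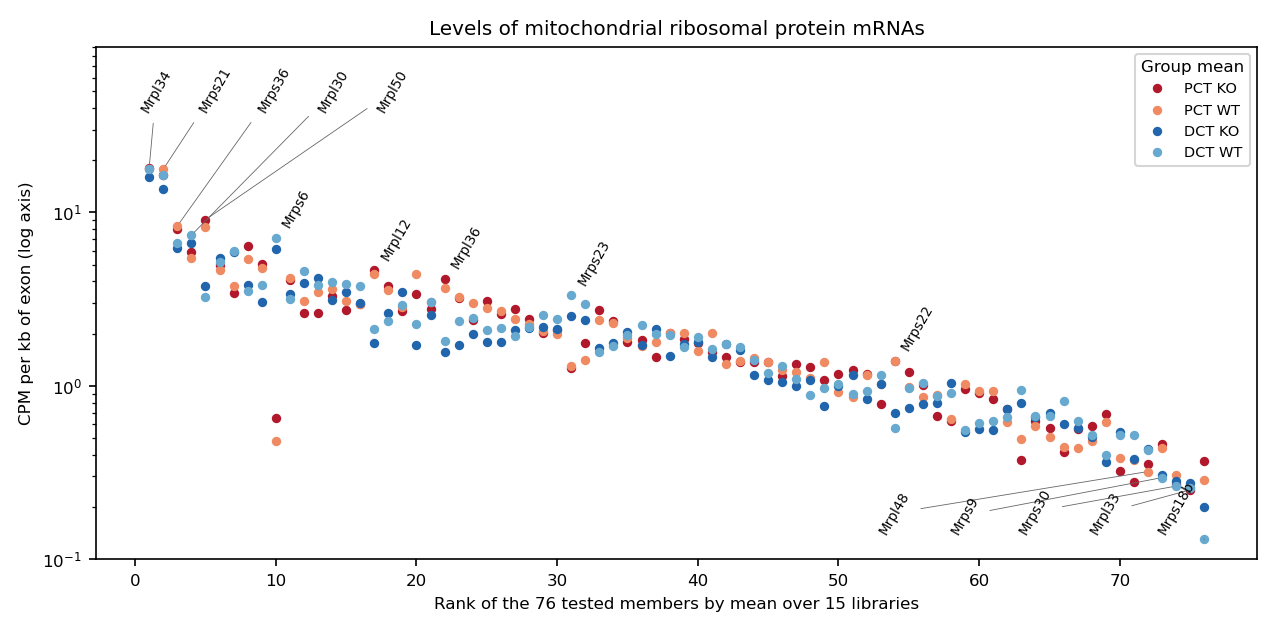
Mean CPM per kb of exon (log axis) of the 76 tested members in PCT KO, PCT WT, DCT KO and DCT WT, ranked by the mean over 15 libraries, with the 5 highest, the 5 lowest and 5 members with a segment difference labelled. Levels run from 0.237 to 17.4 CPM per kb, and Mrps6 is the member whose PCT and DCT means lie farthest apart.

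The segment comparison asked which members differ between the PCT and the DCT, separately in WT and in KO mice. Genes were called where limma's voom test with Benjamini-Hochberg adjustment over all genes gave an adjusted p under 0.05, and a positive log2 difference means higher in PCT. In WT, 15 members were higher in PCT and 9 were lower, of 76, where 23.6% of the 13616 genes tested were higher and 25.1% were lower. In KO, 11 were higher and 4 were lower, where 20.4% of 13834 genes were higher and 20.2% were lower. The members were thus called no more often than genes in general, and their median difference was -0.003 in WT (-0.02 over all genes) and 0.09 in KO (-0.04 over all genes). The KO median was 0.35 without PCT KO replicate 5 and -0.02 without PCT KO replicate 7. What follows describes the mRNAs of single members between the segments, and members were not tested against each other.

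Members called in both genotypes numbered 13, with 9 higher and 4 lower. They made up 54.2% of the WT calls and 86.7% of the KO calls, where genes called the same way in both made up 71.7% of WT calls and 84.5% of KO calls over all genes. The WT and KO libraries are separate. All 24 WT calls of members had the same sign in KO, as did 98.2% of those of all genes, and all 15 KO calls of members had the same sign in WT, as did 99.2%. Among the 24 WT calls, 18 had an unadjusted p under 0.05 in KO. Over all 76 members the WT and KO differences correlated with Pearson's r of 0.916, or 0.874 without Mrps6, and 61 had the same sign, as a description across genes.

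**Figure D3:**
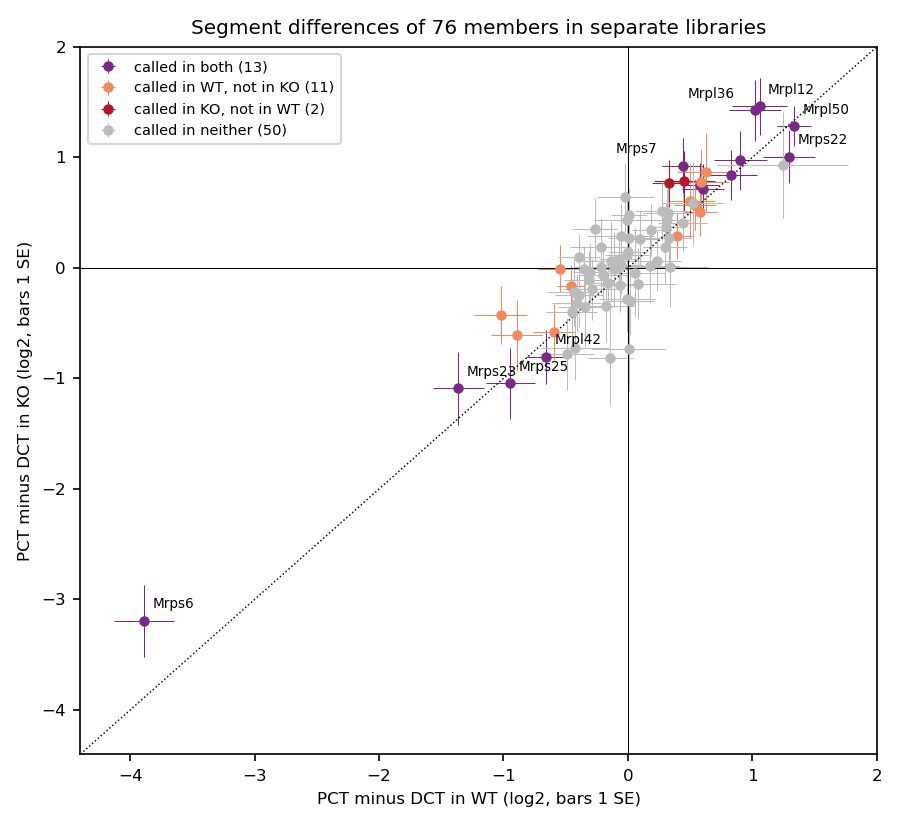
Log2 difference PCT minus DCT of each tested member in KO against that in WT, with bars of 1 SE and colours for members called in both, in 1 or in neither genotype. Mrps6 lies far from the others at -3.19 in KO and -3.89 in WT, and Mrpl50, Mrps22, Mrpl12 and Mrpl36 lie highest among members called in both.

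Mrps6, the mitochondrial homolog of bacterial S6 in the small subunit, differed most between the segments. It lies on the plus strand of chromosome 16 at 92058270 to 92112227 (ENSMUSG00000039680). Its level was 0.892, 0.820 and 1.30 CPM in PCT KO and 0.702, 0.808, 0.720 and 0.705 CPM in PCT WT, against 10.1, 11.4, 8.06 and 8.07 CPM in DCT KO and 10.9, 12.3, 10.2 and 10.4 CPM in DCT WT. All PCT libraries lay far below all DCT libraries in both genotypes. By limma, Mrps6 was 9.13-fold lower in PCT in KO (log2 difference -3.19 ± 0.33 SE, adjusted p = 2.09e-06) and 14.8-fold lower in WT (-3.89 ± 0.24, adjusted p = 2.05e-09).

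Mrps6 shares its start region with Slc5a3, which encodes a sodium-coupled myo-inositol transporter that loads cells with an osmolyte. The annotated starts lie 52 bases apart on the same strand, at 92058270 and 92058322, and 159 exon bases, or 10.4% of those of Mrps6, are common to both genes. Mrps6 also shares 305 exon bases, or 19.9% of its own, with the protein-coding gene Gm49711 on the same strand. Gm49711 had no test result in any comparison. Slc5a3 had 104, 130 and 142 counts in PCT KO and 115, 133, 117 and 114 counts in PCT WT, against 4141, 3455, 4329 and 3365 counts in DCT KO and 2475, 4550, 3355 and 3920 counts in DCT WT. It was thus lower in PCT in the same libraries and by more, with log2 differences of -4.97 in KO (31.3-fold lower) and -5.19 in WT (36.5-fold lower). Per 100 counts of Slc5a3, Mrps6 had 25.4 to 41.5 counts in PCT KO and 27.2 to 32.5 in PCT WT, against 7.48 to 11.3 in DCT KO and 11.8 to 12.7 in DCT WT. What part of the Mrps6 counts came from transcripts of Slc5a3 or Gm49711 was not tested. The RefSeq window of Mrps6 in GRCm38.p6, from 250 bases before to 50 after the RefSeq start, is shown because it holds both of those annotated starts, and it is 73.7% G and C. The RefSeq start lies at 92058336, which is 66 bases downstream of the start given above.

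Mrps6, chr16:92058086-92058385, plus strand: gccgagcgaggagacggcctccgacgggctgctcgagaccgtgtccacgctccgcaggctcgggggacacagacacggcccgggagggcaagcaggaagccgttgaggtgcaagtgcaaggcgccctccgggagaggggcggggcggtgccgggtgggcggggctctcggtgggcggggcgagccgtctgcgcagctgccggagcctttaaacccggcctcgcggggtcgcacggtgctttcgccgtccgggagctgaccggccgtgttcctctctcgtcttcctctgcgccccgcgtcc

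Mrpl50 and Mrps22, both specific to mitochondria, were the members with the smallest p among those higher in PCT in WT. Mrpl50, a large-subunit protein encoded on chromosome 4 at 49512596 to 49521093, had 17.8, 20.6 and 19.1 CPM in PCT KO, against 7.32, 7.76, 7.24 and 9.43 CPM in DCT KO. In WT it had 16.7, 18.8, 15.5 and 18.6 CPM in PCT, against 7.55, 7.11, 6.32 and 6.42 CPM in DCT. Every PCT library exceeded every DCT library, by 2.44-fold in KO (1.28 ± 0.18, limma adjusted p = 4.23e-05) and 2.52-fold in WT (1.34 ± 0.13, adjusted p = 4.34e-07). Mrps22, a small-subunit protein encoded on chromosome 9 at 98588730 to 98601660, had 6.30, 4.52 and 5.90 CPM in PCT KO and 4.57, 6.46, 6.25 and 4.96 CPM in PCT WT, against 2.65, 2.41, 2.51 and 3.51 CPM in DCT KO and 2.83, 1.90, 2.14 and 2.27 CPM in DCT WT. It too separated the segments without overlap, by 2.01-fold in KO (1.01 ± 0.24, adjusted p = 0.00372) and 2.45-fold in WT (1.29 ± 0.21, adjusted p = 6.70e-05). In humans, recessive variants of MRPS22 cause a deficiency of several respiratory chain complexes.

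Mrpl12 and Mrpl36, both of the large subunit, have bacterial homologs. Mrpl12, the counterpart of the bacterial stalk protein L7/L12 that recruits translation factors, lies on chromosome 11 at 120484613 to 120489065. It had 6.58, 7.55 and 7.16 CPM in PCT KO and 6.63, 6.65, 7.83 and 5.82 CPM in PCT WT, against 2.78, 3.31, 1.59 and 3.09 CPM in DCT KO and 2.34, 2.72, 2.76 and 5.22 CPM in DCT WT. The groups did not overlap, though DCT WT replicate 4 came near the PCT values, and the difference was 2.76-fold in KO (1.46 ± 0.26, limma adjusted p = 0.000361) and 2.08-fold in WT (1.06 ± 0.22, adjusted p = 0.000775). Mrpl36, the counterpart of bacterial L36 and a late addition to the large subunit, lies on chromosome 13 at 73328513 to 73332178. It had 4.77, 3.95 and 5.71 CPM in PCT KO and 3.57, 5.10, 4.32 and 4.09 CPM in PCT WT, against 1.84, 2.18, 1.24 and 2.03 CPM in DCT KO and 1.96, 1.81, 2.61 and 1.99 CPM in DCT WT. All PCT libraries were above all DCT libraries, by 2.69-fold in KO (1.43 ± 0.28, adjusted p = 0.000713) and 2.03-fold in WT (1.02 ± 0.21, adjusted p = 0.000660).

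The other large-subunit genes higher in PCT had smaller differences. Mrpl14, which faces the small subunit, was higher in PCT by 0.98 on the log2 scale in KO (adjusted p = 0.00889) and by 0.90 in WT (adjusted p = 0.00215). Mrpl18 was higher by 0.75 in KO (adjusted p = 0.00717) and by 0.58 in WT (adjusted p = 0.00537), and Mrpl3 by 0.71 in KO (adjusted p = 0.0203) and 0.61 in WT (adjusted p = 0.00708). Mrpl22, a tunnel protein, passed in WT at 0.59 and had 0.78 with an adjusted p of 0.0529 in KO. The tunnel protein Mrpl4 and the core protein Mrpl2 passed in KO, at 0.77 and 0.79, and had 0.33 and 0.45 in WT with adjusted p of 0.0636 and 0.138. Mrpl38 and Mrpl39, both specific to mitochondria, passed in WT at 0.50 and 0.40 and had 0.61 and 0.29 in KO, with adjusted p of 0.168 and 0.299 by limma. In all, 9 of 50 large-subunit genes were higher and 5 lower in WT, and 8 were higher and 1 lower in KO. Of all genes tested, 23.6% were higher and 25.1% lower in WT, and 20.4% were higher and 20.2% lower in KO.

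In the small subunit, 6 of 25 genes were higher and 4 lower in PCT in WT, and 3 were higher and 3 lower in KO. Besides Mrps22, the higher genes called in both were Mrps35, a protein specific to mitochondria, at 0.84 in KO and 0.83 in WT, and Mrps7, a protein of the subunit's head, at 0.93 in KO and 0.44 in WT. Mrps2, Mrps5 and Mrps26 passed in WT at 0.58, 0.54 and 0.63, and had 0.50, 0.57 and 0.87 in KO with limma adjusted p of 0.0798, 0.0614 and 0.0648. Genes in general were also called in both directions. Their shares were 23.6% higher and 25.1% lower in WT, and 20.4% higher and 20.2% lower in KO.

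Mrps23 and Mrps25, both small-subunit proteins specific to mitochondria, were lower in PCT. Mrps23, on chromosome 11 at 88204388 to 88211507, had 2.34, 0.969 and 2.62 CPM in PCT KO and 2.19, 1.82, 2.44 and 1.68 CPM in PCT WT, against 3.83, 4.42, 3.28 and 4.27 CPM in DCT KO and 4.69, 4.48, 5.16 and 6.42 CPM in DCT WT. The segments did not overlap, and Mrps23 was 2.13-fold lower in KO (-1.09 ± 0.33, limma adjusted p = 0.0170) and 2.57-fold lower in WT (-1.36 ± 0.21, adjusted p = 3.62e-05). Mrps25, on chromosome 6 at 92169525 to 92184033, had 3.15, 1.91 and 2.31 CPM in PCT KO and 2.73, 3.83, 3.81 and 2.66 CPM in PCT WT, against 3.67, 5.84, 3.68 and 7.66 CPM in DCT KO and 5.27, 5.24, 6.68 and 7.54 CPM in DCT WT. It was 2.06-fold lower in KO (-1.05 ± 0.33, adjusted p = 0.0188) and 1.92-fold lower in WT (-0.94 ± 0.20, adjusted p = 0.000719). Of the exon bases of Mrps25, 69.8% are shared with Nr2c2 on the opposite strand, which had log2 differences of -0.02 in KO and -0.01 in WT, and the strand setting of the counting is not given.

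The large-subunit gene lower in PCT in both genotypes was Mrpl42, specific to mitochondria and encoded on chromosome 10 at 95480805 to 95501940. It had 10.9, 8.97 and 17.9 CPM in PCT KO and 13.3, 14.7, 13.3 and 14.2 CPM in PCT WT, against 19.8, 26.3, 16.4 and 24.4 CPM in DCT KO and 22.1, 14.9, 24.4 and 27.4 CPM in DCT WT. The KO groups overlapped, and the difference was -0.80 ± 0.25 in KO (limma adjusted p = 0.0172) and -0.65 ± 0.16 in WT (adjusted p = 0.00326). The KO calls of Mrps23, Mrps25 and Mrpl42 lay near the threshold and were lost without some single libraries, with the sign kept. Without PCT KO replicate 5, 1 member, Mrps6, stayed called lower in KO, and Mrps23 had -0.64 (adjusted p = 0.0711), Mrps25 -0.89 (0.0690) and Mrpl42 -0.58 (0.0783). The count was also 1 without DCT KO replicate 6, where Mrps23 had -1.01 and Mrps25 -0.94, and it was 2 without DCT KO replicate 8. Mrpl42 alone lost its call without PCT KO replicate 4 (adjusted p = 0.0743), and Mrps25 alone without PCT KO replicate 7 (adjusted p = 0.0623).

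**Figure D4:**
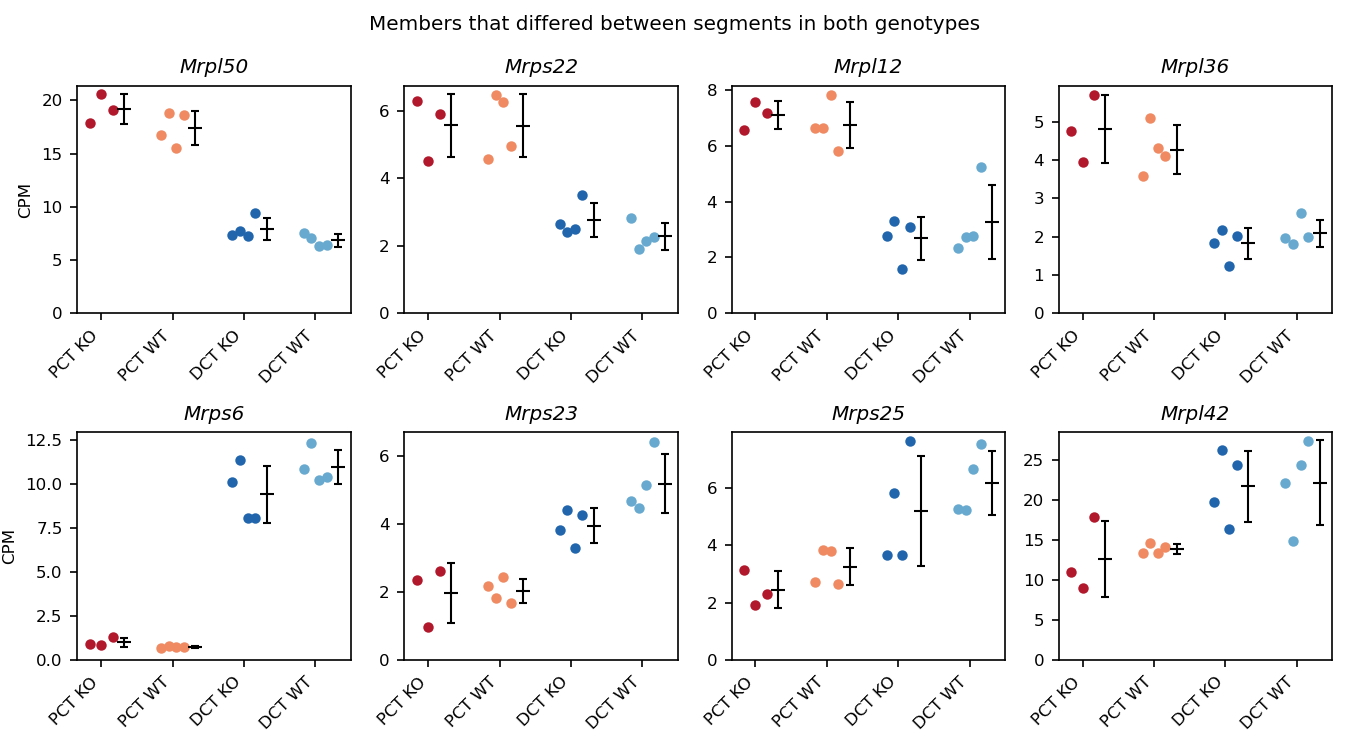
CPM in each library (points) of 8 members called between the segments in both genotypes, in PCT KO, PCT WT, DCT KO and DCT WT, with the mean and SD of each group in black. Mrpl50, Mrps22, Mrpl12 and Mrpl36 are higher in every PCT library than in any DCT library, and Mrps6 and Mrps23 are lower in every PCT library.

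Further members were lower in PCT in WT alone by the threshold, and no difference between genotypes passed the test of the difference given below. Mrpl46 was 2.03-fold lower in WT (-1.02 ± 0.21, limma adjusted p = 0.000669) and had -0.43 in KO (adjusted p = 0.224). It is divergently arranged with another member, Mrps11, with starts 412 bases apart and 173 shared exon bases, and Mrps11 had 0.06 in KO and -0.14 in WT, neither called. Mrpl23, at the mouth of the exit tunnel, was 1.86-fold lower in WT (-0.89 ± 0.20, adjusted p = 0.00166) and had -0.61 in KO (adjusted p = 0.156). Its processed pseudogene Mrpl23-ps1 was counted at 33 to 120 per library, beside 45 to 179 for Mrpl23, and was also lower in WT at -1.19 (adjusted p = 0.000674), and the split of reads between the copies is uncertain. Mrpl30, Mrpl52 and Mrps10 were lower in WT at -0.46, -0.60 and -0.54 and had -0.17, -0.58 and -0.01 in KO.

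The 50 members called in neither genotype ran from -0.81 (Mrpl54) to 0.93 (Mrps18b) in KO and from -0.49 (Mrps16) to 1.24 (Mrps18b) in WT. For 42 of the 76 members in KO, and 60 of 76 in WT, the whole 95% interval of the difference lay within 1 log2 unit of 0. The name exceptions were among those not called. By limma, Mrps18a had 0.52 in KO (adjusted p = 0.142) and 0.27 in WT (adjusted p = 0.324), Mrps30 had 0.02 in KO (0.976) and 0.18 in WT (0.581), and Mrps36 had 0.37 in KO (0.211) and 0.31 in WT (0.0562). Mrps18b, the lowest member by level, had the largest difference without a call, with adjusted p of 0.142 in KO and 0.0624 in WT.

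The promoters of the members were compared with those of all genes, using windows of GRCm38.p6 from 250 bases before to 50 after each RefSeq start. Windows were found for 69 of the 78 members, 75 in all. Each motif was searched on both strands as exact letters, none of which contains another. The ETS-type core CCGGAAG was in 34.7% of member windows and 8.86% of all 32851 windows. The YY1-type core AANATGGCG was in 14.7% against 2.38%, and the NRF1 core GCGCATGCG, named for a factor known for activating nuclear genes of the respiratory chain, in 9.33% against 1.75%. A nuclear receptor half-site, AAGGTCA, as bound by oestrogen-related receptors, was in 5.33% against 4.72%, the GC box GGGCGG in 52.0% against 35.7%, CCAAT in 40% against 37.4%, the E-box CACGTG in 9.33% against 7.15% and TATAAA in 6.67% against 13.6%. Counted per gene rather than per window, CCAAT was in 39.1% of member genes against 41.1% of all genes and the E-box in 7.25% against 8.09%. G and C made up 58.7% of member windows and 52.7% of all windows.

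The ETS and YY1 cores were found in members called in either direction. Of the 13 genes higher in PCT in WT that have a window, 5 held the ETS core, 2 the NRF1 core, 1 the YY1 core and 2 the half-site, and of the 9 lower genes 2 held the ETS core, 0 the NRF1 core, 1 the YY1 core and 0 the half-site. Among all member genes with a window, 37.7% held the ETS core. The 4 windows below belong to strongly higher members and to a lower one with the same ETS core, and each holds some of these letters. They do not stand for all higher members. The windows of Mrpl50, Mrpl14 and Mrps2, also called higher in WT, hold no ETS, YY1, NRF1 or half-site letters. Capitals mark the ETS, YY1, NRF1 or half-site letters on either strand. The half-site is in Mrpl36 and Mrpl12, the YY1 core in Mrpl36, and the ETS core in Mrps22 and Mrps23. The RefSeq start of Mrpl36, at 73331009, lies 2496 bases downstream of the gene's first annotated base given above, so its window lies inside the annotated gene. A match is a description of the letters, and factor binding was not measured.

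Mrpl36, chr13:73330759-73331058, plus strand: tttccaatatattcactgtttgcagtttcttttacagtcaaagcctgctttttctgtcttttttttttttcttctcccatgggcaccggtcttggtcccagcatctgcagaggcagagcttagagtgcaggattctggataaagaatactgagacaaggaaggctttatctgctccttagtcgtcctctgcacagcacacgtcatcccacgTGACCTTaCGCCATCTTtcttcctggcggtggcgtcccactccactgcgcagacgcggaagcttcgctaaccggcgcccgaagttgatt
Mrpl12, chr11:120484387-120484686, plus strand: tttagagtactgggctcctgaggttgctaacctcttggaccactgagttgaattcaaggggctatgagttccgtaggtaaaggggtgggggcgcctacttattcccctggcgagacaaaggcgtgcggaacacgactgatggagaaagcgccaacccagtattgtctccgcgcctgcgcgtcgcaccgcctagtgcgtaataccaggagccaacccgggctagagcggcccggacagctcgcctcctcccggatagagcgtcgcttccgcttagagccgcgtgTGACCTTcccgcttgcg
Mrps22, chr9:98601630-98601929, minus strand: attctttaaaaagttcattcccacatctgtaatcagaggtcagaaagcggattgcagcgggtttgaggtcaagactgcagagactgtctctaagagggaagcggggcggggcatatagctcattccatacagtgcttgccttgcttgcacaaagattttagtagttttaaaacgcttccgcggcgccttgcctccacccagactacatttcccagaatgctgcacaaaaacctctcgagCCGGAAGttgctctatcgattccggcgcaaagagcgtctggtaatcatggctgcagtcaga
Mrps23, chr11:88204138-88204437, plus strand: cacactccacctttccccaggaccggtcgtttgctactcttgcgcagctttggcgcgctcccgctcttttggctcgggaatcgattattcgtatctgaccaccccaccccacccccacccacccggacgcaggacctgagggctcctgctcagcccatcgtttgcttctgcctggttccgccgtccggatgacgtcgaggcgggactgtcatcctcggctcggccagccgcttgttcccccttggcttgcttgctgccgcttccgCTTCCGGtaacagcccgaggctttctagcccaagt

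Members also shared an arrangement in the genome. The start of another protein-coding gene lay within 1000 bases in head-to-head orientation for 33 of 78 members, or 42.3%, and for 2381 of 21921 protein-coding genes, or 10.9%. In KO, 3 of 6 such partners of called members were called in the same direction, Klc4 beside Mrpl2, Tmem63b beside Mrpl14 and Tcp1 beside Mrpl18, and in WT 2 of 8 were, Tmem63b and Tcp1, with 0 called in the opposite direction in either. These counts are small, and 20.2% to 20.4% of all genes were called in a given direction in KO and 23.6% to 25.1% in WT. Tmem63b shares 106 exon bases with Mrpl14 and Tcp1 shares 141 with Mrpl18, on opposite strands. Ndufs6, whose start is 29 bases from the first annotated base of Mrpl36, had -0.13 in KO and -0.12 in WT, and Zfp189, 83 bases from Mrpl50, had -0.01 in KO and 0.11 in WT, none of them called.

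Loss of claudin-10a was then compared with WT within each segment. These comparisons use the same libraries as the segment comparisons. In PCT, 0 of 76 members were called by limma, where 0.166% of 13229 genes were, and 0 had an unadjusted p under 0.05, where 7.38% of all genes did. The 0 calls were the same with limma-trend. Of the members, 34 had a difference above 0 and 42 below, with a median of -0.03 on the log2 scale (-0.01 over all genes). The median was 0.12 without PCT KO replicate 5 and -0.15 without PCT KO replicate 7, so its sign rests on single libraries.

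The members with the smallest p in PCT all failed the test. Mrps10, a homolog of bacterial S10, had 0.35 ± 0.21 SE (95% interval -0.10 to 0.80, limma adjusted p = 0.762), Mrpl1 0.41 ± 0.26 (adjusted p = 0.774) and Mrpl18 0.23 ± 0.18 (adjusted p = 0.815). On the lower side, Mrpl54 had -0.64 ± 0.37 (95% interval -1.44 to 0.16, adjusted p = 0.757), and Mrps25 and Mrpl15 each had -0.44 ± 0.27 (adjusted p = 0.762 and 0.764). The Mrpl54 value rests on PCT KO replicate 5. That library had 0.820 CPM beside 3.20 and 2.49 CPM in the other PCT KO libraries, against 2.93, 2.94, 3.15 and 2.5 CPM in PCT WT. Groups did not overlap for 5 members, 4 higher in KO (Mrpl22, Mrpl46, Mrps10 and Mrps6) and 1 lower (Mrpl38), where 7.97% of all genes did not overlap. For 65 of the 76 members the 95% interval lay within 1 log2 unit of 0.

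In DCT, 0 of 76 members were called, where 0% of 12968 genes were, and 2 had an unadjusted p under 0.05, where 7.13% of all genes did. Here too limma-trend called 0. More members lay below 0 (51) than above (25), with a median of -0.14 (-0.01 over all genes). Without DCT KO replicate 7, the library lowest for 44 members, the median was -0.06. Mrps7 had 4.07, 4.04, 2.54 and 3.57 CPM in DCT KO, against 4.93, 5.6, 4.54 and 4.56 CPM in DCT WT. Its groups did not overlap, and its difference of -0.49 ± 0.21 (95% interval -0.92 to -0.06) had an unadjusted p of 0.0264 and an adjusted p of 0.680 by limma.

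The rest of the named DCT members also failed. Mrpl16, a homolog of bacterial L16 near the peptidyl transferase centre, had -0.45 ± 0.19 (limma adjusted p = 0.681) and Mrpl37 -0.37 ± 0.18 (adjusted p = 0.687). Mrpl1 had 0.36 ± 0.20 (adjusted p = 0.702), Mrpl32 0.31 ± 0.19 (adjusted p = 0.738) and Mrpl50 0.22 ± 0.17 (adjusted p = 0.793). Groups did not overlap for 3 members, all lower in KO (Mrpl14, Mrps23 and Mrps7), where 3.82% of all genes did not overlap. The 95% interval lay within 1 log2 unit of 0 for 74 of 76 members. Mrps18a, Mrps30 and Mrps36 had -0.18, 0.04 and -0.12 in DCT and 0.03, -0.15 and -0.09 in PCT.

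**Figure D5:**
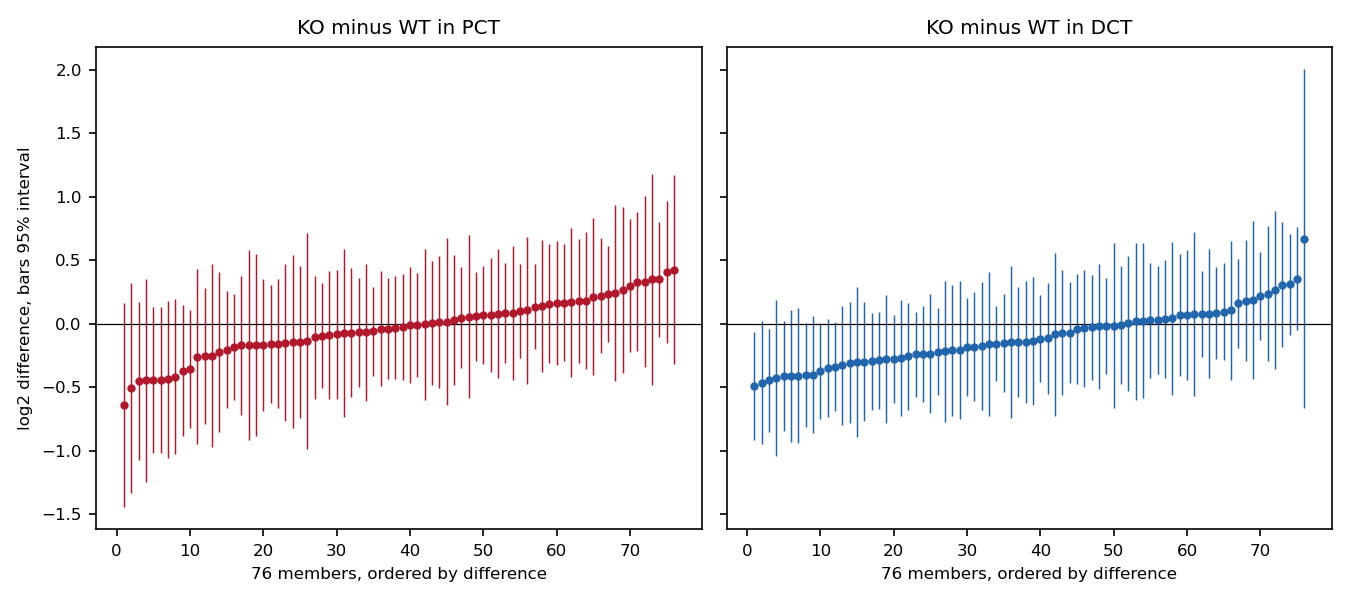
Log2 difference KO minus WT of each tested member with its 95% confidence interval, in PCT and in DCT, ordered by the difference. Differences run from -0.64 (Mrpl54) to 0.43 (Mrps6) in PCT and from -0.49 (Mrps7) to 0.67 (Mrps18b) in DCT, and 0 members were called in either.

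The authors' deposited tables of the same comparisons gave 0 members under an adjusted p of 0.05. In the authors' deposited table for PCT, 77 members had an adjusted p and the lowest was 0.833, for Mrpl1. In the authors' deposited table for DCT, 66 had one and the lowest was 0.542, for Mrps7, with 4 members at an unadjusted p under 0.05.

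Whether the segment difference of a member itself changed with genotype was tested as an interaction over all 15 libraries. By limma, 0 of 76 members and 0 of 15279 genes were called, 0% in all, and 0 members had an unadjusted p under 0.05, where 5.56% of all genes did. The difference of differences ran from -0.76 (Mrps18c) to 0.68 (Mrps6), with a median of 0.09 over the members and -0.002 over all genes. The median was -0.07 without PCT KO replicate 7. Mrps6 had 0.68 ± 0.38 (adjusted p = 0.942), Mrps10 0.52 ± 0.26 (0.916), Mrpl58, a peptidyl-tRNA hydrolase built into the large subunit, 0.60 ± 0.32 (0.932) and Mrpl37 0.47 ± 0.26 (0.940). On the other side Mrpl54 had -0.70 ± 0.45 (0.967), Mrps18c -0.76 ± 0.51 (0.971) and Mrps22 -0.31 ± 0.31 (0.994). Without PCT KO replicate 5, Mrpl54 had -0.11 and Mrps18c -0.26, and without PCT KO replicate 4 they had -1.04 and -1.14. The interval lay within 1 log2 unit of 0 for 47 of 76 members, so a change of that size is not bounded for the rest.

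The members' partners in mitochondrial translation were set beside them, to be read against 20.4% of all genes higher and 20.2% lower in KO, and 23.6% higher and 25.1% lower in WT. Subunits of the same ribosome under other names gave 0 calls in KO of 5 and 2 lower in WT, Dap3 at -0.71 (limma adjusted p = 0.0105) and Aurkaip1 at -0.37 (adjusted p = 0.0413). Of 14 translation factors, 2 were higher in PCT in KO and 2 in WT, among them the elongation factor Gfm1 at 0.72 in KO and 0.52 in WT. Of 24 assembly factors, 3 were higher in KO, and 5 were higher and 2 lower in WT, among them the GTPase Noa1 at 0.81 in KO and 0.99 in WT. Of 20 mitochondrial aminoacyl-tRNA synthetases and related enzymes, 5 were higher and 1 lower in KO, and 4 were higher and 1 lower in WT. Of 14 genes that maintain or transcribe mitochondrial DNA or stabilise its RNA, 3 were higher in each genotype, among them Lrpprc, which stabilises mitochondrial mRNAs, at 1.05 in KO and 0.93 in WT.

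The RNAs of the mitochondrial genome, which the ribosome is built on and reads, were mostly lower in PCT. Of the 13 mitochondrial mRNAs, 11 were lower in PCT in KO with a median of -0.86, and 10 were lower in WT with a median of -0.48. For example, mt-Co1, a catalytic subunit of cytochrome c oxidase, had -1.48 in KO (limma adjusted p = 1.25e-06) and -0.95 in WT (adjusted p = 0.000139). The large ribosomal RNA mt-Rnr2 had -0.73 in KO (adjusted p = 0.00173) and -0.72 in WT (adjusted p = 0.00289). The small ribosomal RNA mt-Rnr1 had -0.43 in KO (adjusted p = 0.0368) and -0.27 in WT (adjusted p = 0.246). The member median lay at 0.09 in KO and -0.003 in WT, and cytosolic ribosomal proteins gave 7 higher and 0 lower of 81 in KO (median 0.11) and 25 higher and 1 lower in WT (median 0.22). The KO values of the cytosolic genes include PCT KO replicate 5, which was low over them. They were not taken without that library.

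Regulators and mass markers of mitochondria were mixed. Of 11 regulators of mitochondrial biogenesis, 1 was higher and 3 lower in KO, and 3 were higher and 3 lower in WT. The oestrogen-related receptor Esrrb was lower in PCT at -5.95 in KO and -5.11 in WT, and the coactivator Ppargc1a at -1.50 in KO and -0.84 in WT. Of 12 genes of mitochondrial mass, 5 were higher and 1 lower in KO, and 5 were higher and 3 lower in WT. The chaperonin Hspd1 was higher at 1.76 in KO and 1.43 in WT, and citrate synthase, Cs, was lower at -0.71 in KO and -0.68 in WT. Between KO and WT tubules of the same segment, 0 genes of any of these lists were called in either segment. Cytosolic ribosomal proteins had a median of -0.28 in PCT with 76 of 81 below 0, and without PCT KO replicate 5 the median was 0.01 with 37 below 0. In DCT their median was -0.21 with 75 of 81 below 0, and without DCT KO replicate 7 it was -0.12 with 65 below 0. Over all genes, 6825 of 13229 lay below 0 in PCT and 6372 of 12968 above 0 in DCT. The mitochondrial mRNAs had a median of -0.13 in PCT with 12 of 13 below 0, and -0.23 with 13 below 0 without PCT KO replicate 5. In DCT their median was 0.23 with 13 of 13 above 0, and 0.28 with 13 above 0 without DCT KO replicate 7. In DCT, 5 of them had an unadjusted p under 0.05 by limma, where 7.13% of all genes did. Regulators of biogenesis had a median of -0.25 in PCT with 10 of 11 below 0, and -0.46 with 9 below 0 without PCT KO replicate 5. In DCT their median was 0.32 with 9 of 10 above 0, and 0.18 with 9 above 0 without DCT KO replicate 7. In the interaction fit by limma, 0 mitochondrial mRNAs and 0 regulators were called. An unadjusted p under 0.05 was reached by 5 of 13 mitochondrial mRNAs and 2 of 11 regulators, where 5.56% of all genes did. Genes of a list are not independent replicates, and these counts and those in DCT above are a description.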

How the data were processed

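Per the labels' protocols, total RNA of pooled tubules was extracted (Rneasy Plus Micro kit) and sequenced as Nextera XT libraries. Per the submitters' processing notes, CASAVA 1.8, STAR 2.5 and DESeq2 1.24.0 were used on GRCm38; which program counted the reads, and with which annotation or strand option, is not given in those notes. The authors deposited a table of whole-number counts per Ensembl gene, and a table per segment of KO and WT with log2 fold changes and p-values, raw and adjusted. The sign of the PCT table was read from Cldn10, at -12.2. In the DCT table Cldn10 had 0.036, which does not give the sign there.

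Symbols, exon lengths and coordinates came from GENCODE M21 (GRCm38). Genes with about 10 counts in as many libraries as the smaller group and 15 in total were kept. Libraries were scaled by trimmed means (30% of log ratios and 5% of intensities trimmed at each end) and tested with limma 3.58.1 (voom, prior count 0.5, R 4.3.3), each comparison on its own groups and the interaction on all 15 libraries, with Benjamini-Hochberg adjustment over all genes. Scripts used Python 3.11.15, numpy 2.4.6, pandas 2.3.3, scipy 1.17.1 and matplotlib 3.10.9, and the test was tried on simulated data first. Replicates of a group correlated at 0.955 to 0.980, and 1 count was worth 0.0189 to 0.0345 CPM. The lowest count of a tested member in any library was 2 and the median 152.5.

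Members named are up to 6 called per direction and comparison by smallest p, or the 3 smallest where fewer than 3 were called, the 5 highest and 5 lowest by level, the exceptions to the naming and those that failed the filter. Other members called between segments, and Slc5a3, Nr2c2 and the head-to-head partners, are named outside that rule, after seeing their values. The members and gene lists were chosen with earlier results of these data known. Alternatives tried were other filters, scalings, weights, thresholds and sample sets, the replicate block, the library number series and leaving out each library. The medians of other gene lists without single KO libraries were added after seeing the data.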

Additional observations from a re-analysis of the deposited data

Results flagged for a closer look

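The 4-library groups of the 33 members chosen by the naming rule, and of the summed level and share of all members, were searched for a library far from the other 3, taking the gap to the nearest library as a share of the group's range against Dixon's 95% critical value. Of 105 groups, 4 passed, and chance alone picks out about 1 in 20. PCT KO, with 3 libraries, was not searched. Mrpl12, the stalk protein, stood at 5.22 CPM in DCT WT replicate 4, with a gap of 0.855 of the range and a group median of 2.74 CPM. Mrpl54 stood at 3.49 CPM in the same library, with a gap of 0.9 and a median of 3.04 CPM. Mrps6 stood at 0.808 CPM in PCT WT replicate 2, with a gap of 0.833 and a median of 0.712 CPM. Mrpl48 stood at 2.99 CPM in PCT WT replicate 3, with a gap of 0.844 and a median of 2.5 CPM. In limma, Mrpl12 and Mrps6 kept their segment calls in WT without the library in question.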

How the results depend on the processing

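Among called members picked by the naming rule, none changed direction under any alternative run. The direction of the other called members was not followed. Medians close to 0 did change sign, among them the KO minus WT median in PCT at 0.117 without PCT KO replicate 5, against -0.0284. At an adjusted p under 0.1, 15 members were lower in PCT in WT in place of 9, and 7 in KO in place of 4. With the replicate block, 10 members were higher and 7 lower in WT, and in KO, where PCT and DCT share 2 numbers, 3 were higher and 1 lower with a median of 0.248. The same KO libraries without the block, an alternative chosen after seeing the data, gave 3, 1 and 0.251. Same-numbered WT libraries correlated at 0.0166, -0.0796 and 0.0745, and differently numbered ones at -0.1 to 0.0846. With so few libraries these values cannot decide whether the numbers pair. Number 4 is KO in PCT and WT in DCT, and number 6 is WT in PCT and KO in DCT. The WT libraries of the block, fitted without it, gave 10 higher and 9 lower. Leaving out each library in turn gave 12 to 14 higher and 8 to 11 lower in WT, and 9 to 14 higher and 1 to 4 lower in KO. It moved the KO median over -0.0219 to 0.345 and the interaction median over -0.0720 to 0.229. The ratio of highest to lowest member was 73.4 per kb of exon, 41.6 in CPM and 58.6 by principal transcript. Scaling by median ratios or on nuclear protein-coding genes alone gave 16 and 18 higher in WT, with 9 lower in both, and 11 higher and 4 lower in KO in both. Why these values moved was not tested. Low counts limit Mrps18b, at 0.0689 to 0.837 CPM.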
